A study of Rattus norvegicus with 4 samples.

Results

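Acetylcholine reaches the hippocampus mainly along fibres from the medial septum, and it acts there on muscarinic and nicotinic receptors. The transcripts of Chrm1, Chrm2, Chrm3, Chrm4, Chrna4, Chrna5, Chrna7, Chrnb2 and Ache were sought in hippocampal RNA of stressed and nonstressed rats. Members were the probe sets whose platform annotation gave a single gene symbol from these 9 genes. The rule found 9 probe sets of 8 genes, out of 31042 probe sets on the array that are not Affymetrix controls. No probe set carried Ache as its single symbol, so Ache was not analysed here. Of the 9 probe sets, 1 was measurable, meaning that 2 or more of the 4 arrays had a signal of 100 or higher. It belonged to Chrm3, and its signals in stressed and nonstressed rats overlapped and did not pass the test.

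The rats were aged male Wistar rats. Stressed rats were 15 months old when 4 weeks of chronic unpredictable mild stress began and 16 months old at dissection, and controls of 16 months lived under standard housing with food and water freely available. Each group had 2 arrays, and each array carried the pooled hippocampal RNA of 3 rats. Whether separate rats went into each pool is not given in the sources used here, so each p measures only the spread between pools, which may be technical.

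Muscarinic receptors are coupled to G proteins. The products of Chrm1 and Chrm3 act mostly through Gq, which activates phospholipase C and closes the M-type potassium channels, whereas those of Chrm2 and Chrm4 act through Gi/o, which inhibits adenylyl cyclase and opens inward-rectifier potassium channels. Nicotinic receptors are ion channels made of 5 subunits. In brain, Chrna4 and Chrnb2 encode the subunits of the common high-affinity receptor, Chrna5 an accessory subunit of it, and Chrna7 the subunit of a calcium-permeable receptor that can form from this subunit alone. Acetylcholinesterase, the product of Ache, splits acetylcholine in the synaptic cleft.

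Median signals were 79.3 to 82.1 per array, and 46.4% to 46.8% of the probe sets reached a signal of 100 on an array. Of all 31042 probe sets, 47.6% were measurable. Of 10 markers of hippocampal pyramidal and granule neurons 9 had a probe set, among them Prox1, Neurod6, Wfs1 and Fibcd1, and all 9 of these were measurable. Of 6 markers of cholinergic neurons, 4 had a probe set and none was measurable. In bulk tissue, fewer cells of a type and less RNA per cell cannot be told apart.

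Chrm3 was represented by 2 probe sets. The brighter, 1387462_at, had signals of 255.3 and 217.7 in nonstressed controls and 205.2 and 218.3 in stressed rats. The groups overlapped, since a stressed array lay above the lower control array. The mean was 236.5 ± 26.6 (SD, n = 2 arrays) in controls and 211.8 ± 9.26 (SD, n = 2 arrays) in stressed rats. Stressed rats were compared with controls by limma on the log2 signals of all 14791 measurable probe sets, with Benjamini-Hochberg adjustment over them. The log2 fold change of the brighter Chrm3 probe set was -0.16 (standard error, SE, 0.12; 95% interval -0.43 to 0.11, limma adjusted p = 0.369). On the linear scale this was a ratio of 0.898, with an interval of 0.745 to 1.08. Of all measurable probe sets, 23.8% passed adjusted p under 0.05, 12% as rises and 11.8% as falls, while 1.6% were changed at least 2-fold at unadjusted p under 0.05. The brighter Chrm3 probe set passed neither rule, and its log2 fold change moved from -0.04 without control replicate 1 to -0.27 without control replicate 2.

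**Figure D1:**
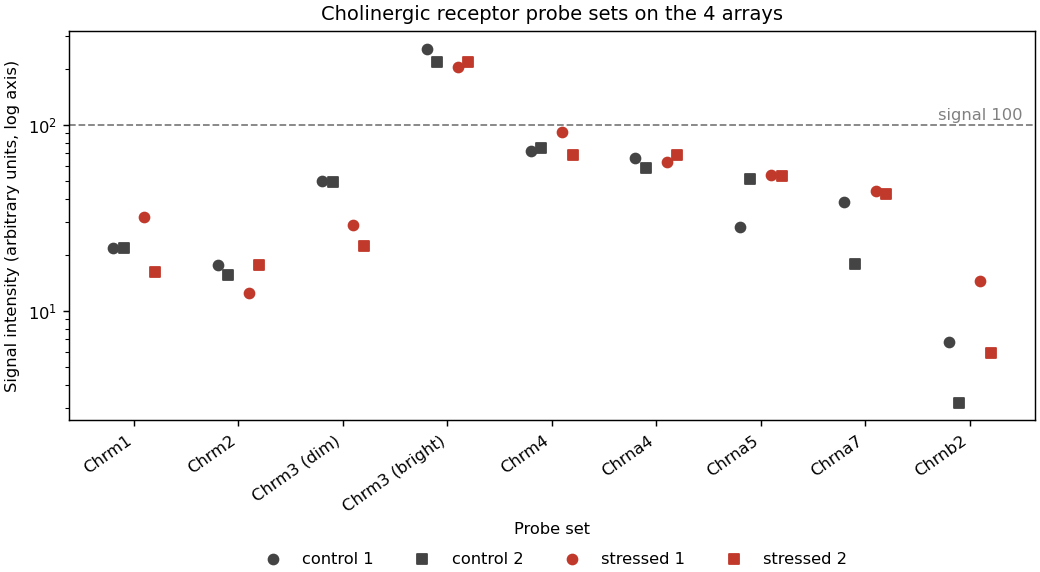
Signal intensity (log axis, arbitrary units) of the 9 probe sets on each of the 4 arrays, with controls in grey and stressed rats in red and no averaging. Only the brighter Chrm3 probe set lies above the dashed line at a signal of 100, and the highest point of the other probe sets is 90.8; heights of different probe sets are not comparable.

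The dimmer Chrm3 probe set, 1369112_at, had signals of 49.7 and 49.2 in controls and 28.9 and 22.3 in stressed rats. Both stressed arrays lay below both control arrays, and all 4 values lay under the minimum of 100. When every probe set was tested without a filter on dim signals, its log2 difference was -0.96 (SE 0.33, unadjusted p = 0.022, limma adjusted p = 0.135). No other of the 9 probe sets was at unadjusted p under 0.05 in that fit, in which 22.8% of all probe sets reached this level. At adjusted p under 0.05, 8.26% of all probe sets passed in that fit and none of the 9 members did, nor did any of the 9 with an offset of 50 added to the signals.

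The other muscarinic receptors had no signal of 100 on any array. Signals of different probe sets are not comparable, so a dim probe set was not read as low expression. Chrm1, known as the main muscarinic receptor of hippocampal pyramidal neurons, had signals of 21.6 and 21.8 in controls and 31.9 and 16.2 in stressed rats. The stressed arrays lay on either side of the controls, with a log2 difference of 0.07 and a 95% interval of -1.10 to 1.23 without the filter. Chrm2, which also serves as an autoreceptor on cholinergic terminals, had signals of 17.5 and 15.6 in controls and 12.5 and 17.7 in stressed rats. Its groups overlapped as well, with a log2 difference of -0.15 and an interval of -1.40 to 1.10. Chrm4 came closest to the minimum among the dim probe sets, with signals of 71.8 and 74.9 in controls and 90.8 and 68.6 in stressed rats. Again the stressed arrays enclosed the controls, and the log2 difference was 0.11 with an interval of -0.39 to 0.60. These intervals leave room for changes of more than 2-fold in Chrm1 and Chrm2, so the data hold no precise value for either gene.

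**Figure D2:**
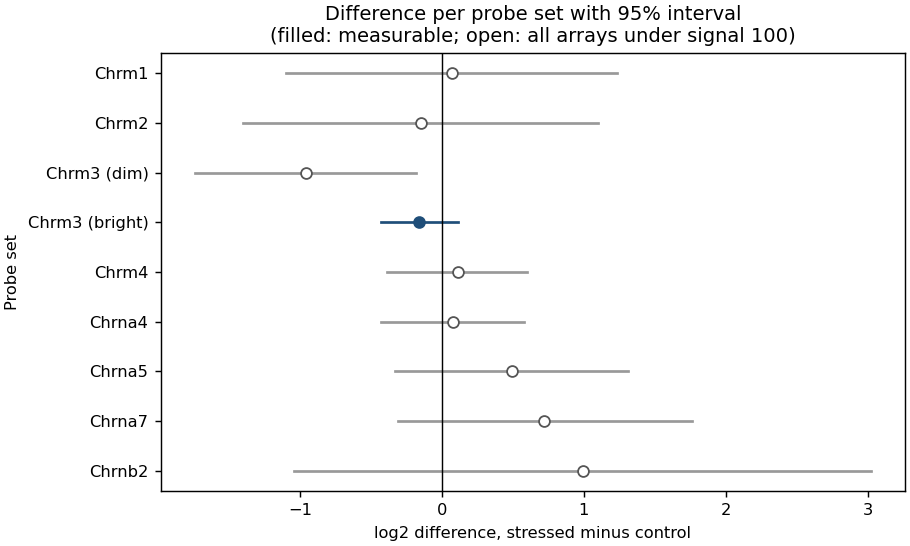
The log2 difference of stressed rats minus controls for each of the 9 probe sets, with 95% intervals from limma. The filled point is the measurable Chrm3 probe set at -0.16 in the filtered fit, and open points are dim probe sets in the fit without a filter, of which the dimmer Chrm3 probe set at -0.96 has an interval that leaves out 0.

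The nicotinic subunits were dim on every array. Chrna4 had signals of 66.1 and 58.4 in controls and 62.6 and 68.5 in stressed rats. The groups overlapped, and the log2 difference was 0.08 with an interval of -0.43 to 0.58 without the filter. Its partner Chrnb2 had signals of 6.8 and 3.2 in controls and 14.5 and 5.9 in stressed rats. These values overlapped and were far apart within each group, and the interval of the log2 difference ran from -1.04 to 3.02.

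Chrna5 and Chrna7 were the 2 dim probe sets with both stressed arrays above both control arrays. Chrna5 had signals of 28.3 and 50.9 in controls and 53.6 and 53.0 in stressed rats. The gap between the groups rested on control replicate 1, since control replicate 2 lay close to the stressed arrays. The log2 difference was 0.49 (interval -0.33 to 1.31, limma adjusted p = 0.469 without the filter). Chrna7 had signals of 38.2 and 17.8 in controls and 43.8 and 42.4 in stressed rats. Here control replicate 2 was the low array, and the log2 difference was 0.72 (interval -0.31 to 1.76, limma adjusted p = 0.389 without the filter). With the dimmer Chrm3 probe set, 3 of the 8 dim members had groups that did not overlap, against 40.9% of all 16251 probe sets that were not measurable.

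The spread between arrays of a group widened as the signal fell. The median log2 gap between the arrays of a group was 0.07 for probe sets with a mean signal of at least 300 and 0.13 from 100 to under 300. It was 0.21 from 50 to under 100, 0.34 from 25 to under 50 and 0.79 under 25. Chrm4 and Chrna4 fell in the range of 50 to under 100, the dimmer Chrm3 probe set, Chrna5 and Chrna7 in that of 25 to under 50, and Chrm1, Chrm2 and Chrnb2 under 25. The brighter Chrm3 probe set had gaps of 0.23 in controls and 0.09 in stressed rats. The control gaps of Chrna5 and Chrna7, 0.85 and 1.10, were wider than their log2 differences between the groups. In the dimmer Chrm3 probe set the gaps were 0.01 and 0.37, both smaller than its difference of -0.96 in size.

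**Figure D3:**
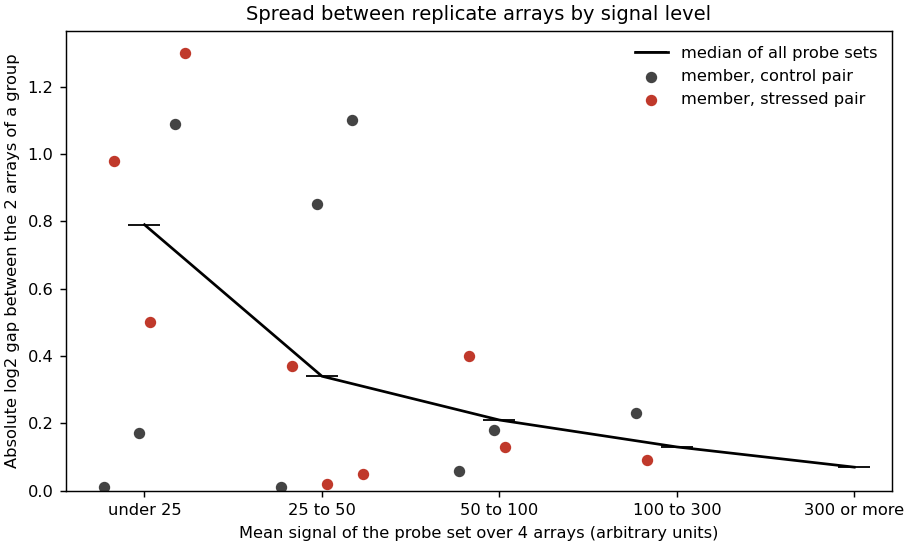
The absolute log2 gap between the 2 arrays of a group, by mean signal of the probe set over the 4 arrays. The black line joins the medians over all probe sets, from 0.79 under a signal of 25 to 0.07 at 300 or more, and points are the 9 cholinergic receptor probe sets, grey for the control pair and red for the stressed pair.

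The remaining cholinergic receptor genes were dim as well. A further 13 genes of muscarinic and nicotinic subunits had 14 probe sets, of which none was measurable, and their highest signal was 68.9. Together with the members, 1 of 23 receptor probe sets was measurable. Chrm5, the remaining muscarinic receptor, had signals of 68.9 and 51.2 in controls and 2.6 and 34.6 in stressed rats. The stressed arrays were lower but far apart from each other, and Chrm5 did not pass adjusted p under 0.05 without the filter (log2 difference -2.65, unadjusted p = 0.0421, limma adjusted p = 0.199).

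The genes that make and store acetylcholine were not measurable. Chat, which encodes the enzyme that makes acetylcholine, had signals of 12.6 and 13.1 in controls and 1.5 and 12.1 in stressed rats. Slc18a3, the vesicular acetylcholine transporter, had signals of 15.0 and 1.4 in controls and 7.6 and 24.4 in stressed rats. Slc5a7, the high-affinity choline transporter of cholinergic terminals, had signals of 35.1 and 27.0 in controls and 54.1 and 38.5 in stressed rats. The values of Slc5a7 did not overlap, but the log2 difference of 0.57 did not pass without the filter (limma adjusted p = 0.391). Bche, a second cholinesterase gene, had overlapping signals of 27.2 and 40.0 in controls and 23.4 and 36.1 in stressed rats.

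Genes of choline and acetyl-CoA supply, which most cells use, were measurable only in part. Slc44a4, for example, had no signal of 100 on any array. Of 5 such genes tested, 1 passed adjusted p under 0.05 as a rise and 0 as a fall, against 11.1% of all 9264 tested genes that rose and 10.2% that fell at their brightest probe set. Acly, which makes cytosolic acetyl-CoA, rose from 1855 ± 20.3 (SD, n = 2 arrays) to 2155 ± 101, a log2 fold change of 0.22 (limma adjusted p = 0.0188). The call of Acly was lost without stressed replicate 1 or either control replicate and without an intensity trend (adjusted p 0.0777 to 0.107). The choline kinase gene Chka had a log2 fold change of 0.36 and the choline transporter genes Slc44a1 and Slc44a2 had 0.19 and -0.07, none of which passed the test. Slc44a1 had 2 further measurable probe sets, with values of -0.32 (limma adjusted p = 0.0547) and 0.13, so its probe sets did not share a direction and none of them passed. At unadjusted p under 0.05 there were 3 of these 5 genes, against 35.6% of all tested genes, and their median was 0.19, against 0.02 over all tested genes.

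Proteins that help nicotinic receptors assemble or restrain them at the surface are encoded by genes that were mostly bright. Of 9 such genes tested, 2 fell, none rose and 7 did not pass. Over all tested genes 10.2% fell and 11.1% rose. At limma unadjusted p under 0.05 there were 4 of the 9, against 35.6% of all tested genes, and the median was -0.04. Ly6h, a Ly6 protein that limits nicotinic receptors at the surface, had signals of 3017.5 and 3269.6 in controls and 2522.8 and 2276.9 in stressed rats. All stressed values were lower, and the log2 fold change was -0.39 (SE 0.06, limma adjusted p = 0.0048), a call lost (adjusted p = 0.0511) when control replicate 2 was left out. Tmem35a, the nicotinic receptor chaperone also called NACHO, fell from 2910 ± 246 (SD, n = 2 arrays) to 2405 ± 99.9, a log2 fold change of -0.27 (limma adjusted p = 0.0206). This call was lost without stressed replicate 2 or control replicate 1 and without an intensity trend (adjusted p 0.0816 to 0.11), and when dim probe sets were kept in the fit (adjusted p = 0.0513). Vsnl1, a calcium sensor, had a log2 fold change of -0.13 at its brightest probe set, which did not pass, while its dimmer probe set fell by 0.45 (limma adjusted p = 0.00122). Cnih2, better known as an auxiliary subunit of AMPA receptors, had -0.14 and did not pass.

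Among genes through which Gq-coupled muscarinic receptors act, the largest change was a fall of Gna11. Of 11 such genes tested, 2 rose, 2 fell and 7 did not pass, with a median of -0.07. Over all tested genes 11.1% rose and 10.2% fell. At limma unadjusted p under 0.05 there were 8 of the 11, against 35.6% of all tested genes. Gna11, which encodes a Gq-family alpha subunit, had signals of 348.1 and 333.3 in controls and 154.5 and 147.5 in stressed rats. The groups were far apart, with a log2 fold change of -1.17 (SE 0.10, limma adjusted p = 2.70e-04). Gna11 was the only 1 of the 35 genes tested in these lists with at least a 2-fold change at unadjusted p under 0.05, and with an offset of 50 none passed that rule. The related Gnaq had no signal of 100 on any array. Prkcb, a protein kinase C gene, rose at each of its 3 probe sets, by 0.29, 0.39 and 0.56 on the log2 scale (limma adjusted p 0.00211 to 0.00691). Rgs4, which shortens signals of Gq and Gi/o proteins, fell at both its probe sets, by 0.33 and 0.52 (limma adjusted p = 0.00738 and 0.00751), the former not passing (adjusted p = 0.0604) when control replicate 2 was left out. Plcb1, one of several phospholipase C genes of this pathway, rose by 0.17 (limma adjusted p = 0.0389). This call was lost when any of the 4 arrays was left out, after median centring and without an intensity trend. It was also lost with dim probe sets kept in the fit and with the replicate number as a block (limma adjusted p = 0.0842).

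Among genes through which Gi/o-coupled receptors act, Kcnj6 rose and Gnai2 fell. Of 9 such genes tested, 1 rose, 3 fell and 5 did not pass, with a median of -0.05. The shares over all tested genes were 11.1% that rose and 10.2% that fell. At limma unadjusted p under 0.05 there were 4 of the 9, against 35.6% of all tested genes. Kcnj6, an inward-rectifier potassium channel subunit that Gi/o-coupled receptors open, had signals of 898.1 and 943.1 in controls and 1361.0 and 1368.8 in stressed rats. All stressed values were higher, with a log2 fold change of 0.57 (SE 0.05, limma adjusted p = 3.49e-04), at the only measurable of its 4 probe sets. Another Kcnj6 probe set, with 1 array above 100, had lower stressed values of 63.9 and 81.2 against 136.2 and 99.1 in controls. Gnai2, a Gi alpha subunit found in many cell types, had signals of 2356.3 and 2372.3 in controls and 1443.9 and 1686.3 in stressed rats. Both stressed values were lower, with a log2 change of -0.60 (SE 0.07, limma adjusted p = 0.00131). Gng2, a G protein gamma subunit, fell by 0.29 at its brighter probe set and had 0.02 at the other, and Rgs7, a regulator of Gi/o proteins, fell by 0.23. The calls of Gng2 and Rgs7 were lost without stressed replicate 2 or either control replicate and without an intensity trend (adjusted p 0.0538 to 0.106).

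Of 7 genes of cholinergic neuron identity and trophic support, 3 had a probe set and Zic4 alone was tested. Zic4, a zinc finger transcription factor gene, had signals of 199.8 and 257.9 in controls and 139.8 and 114.9 in stressed rats. The groups did not overlap, and the log2 fold change was -0.84 (SE 0.16, limma adjusted p = 0.00971), a call lost (adjusted p = 0.0815) when control replicate 2 was left out. A second, dim Zic4 probe set had overlapping signals of 17.2 and 11.6 in controls and 11.6 and 15.4 in stressed rats. Zic4 is not specific to cholinergic neurons, and Ngfr and Isl1 of the same list had no signal of 100 on any array.

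**Figure D4:**
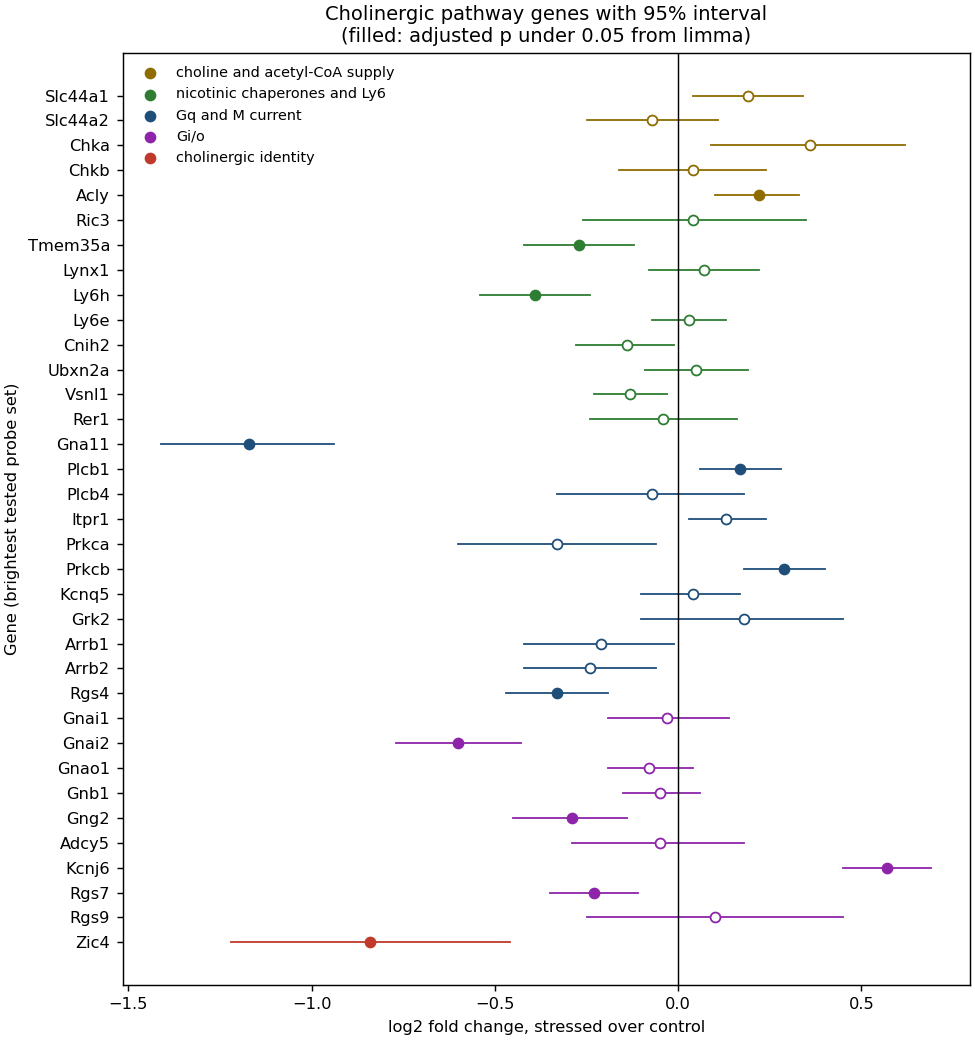
The log2 fold change of stressed over control, with 95% intervals from limma, for the 35 tested genes of the cholinergic pathway lists at their brightest probe set. Filled points, 4 rises and 8 falls, passed adjusted p under 0.05, and Gna11 at -1.17 and Kcnj6 at 0.57 are the extremes.

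In all, 4 of the 35 genes rose, 8 fell and 23 did not pass, with a median of -0.05 against 0.02 over all tested genes. The share that passed in either direction over all tested genes was 21.3%. Marker sums of some cell types and regions separated the groups and those of others overlapped. Of 6 tested choroid plexus markers 4 rose, and their summed signal was 10122 to 12012 in controls and 13141 to 14295 in stressed rats. The summed signal of 6 astrocyte markers was 31483 to 32140 in controls and 35703 to 36205 in stressed rats, with 1 that rose, and that of 6 pan-neuronal markers, of which 2 rose and 1 fell, was 23920 to 24334 and 26306 to 26439. Of 4 tested striatal markers 1 fell, with sums of 2470 to 2472 in controls and 2240 to 2323 in stressed rats. The sums of 4 thalamic markers, 1341 to 1364 in controls and 1407 to 1467 in stressed rats, and of the blood marker Hbb, 2902 to 2914 and 2775 to 2803, also did not overlap, with no marker called. The sums overlapped for 9 hippocampal neuron markers (7698 to 8039 in controls and 7384 to 7793 in stressed rats, 1 rise and 2 falls). They also overlapped for 5 oligodendrocyte markers (28236 to 29976 and 27657 to 28465, 1 rise and 1 fall) and 4 microglial markers (2036 to 2098 and 2043 to 2067, 1 rise and 1 fall). The part of these markers in the results above was not tested.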

How the data were processed

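Hippocampal RNA was profiled on Affymetrix rat genome arrays. The authors made the signal intensities with GCOS 1.4 at a target value of 300, and the deposited intensities were used on their linear scale with no further normalization. Detection calls were not used here, and measurable means a signal of 100 or higher on 2 or more arrays, whereas the study also accepted probe sets by their call.

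Log2 signals were computed with zeros set to 0.1. Of 31042 probe sets, 20826 had 1 gene symbol, 436 several and 9780 none, and 20758 symbols were matched by gene identifier to RefSeq names of GRCr8. The comparison was fitted with an intensity trend and no replicate block in limma 3.58.1 under R 4.3.3, after testing on simulated data. Its 7.73 degrees of freedom include those that limma borrows across probe sets, and the 4 arrays alone supply 2. Summaries and plots used matplotlib 3.10.9, numpy 2.4.6 and pandas 2.3.3 under python 3.11.15. A list gene was counted at its tested probe set with the highest mean log2 signal. Members and lists were chosen with earlier results of these data known.

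Named were all members, the 4 tested genes of each list with the smallest p, and Chat, Slc18a3, Slc5a7, Chrm5, Bche and Prima1, which had no probe set of its own. Gnaq, Ngfr, Isl1, Slc44a4 and the further probe sets of named genes were added after their values were seen. Alternatives were quantile normalization, median centring, other filters, an offset of 50, a floor of 50, no intensity trend, the test the methods name, the replicate block, gene means and leaving out each array. The number of arrays limits the precision.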

Additional observations from a re-analysis of the deposited data

How the results depend on the processing

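No member probe set passed adjusted p under 0.05, or 2-fold at unadjusted p under 0.05, in any of the alternatives run, and the brighter Chrm3 probe set stayed below 0 in each, from -0.04 to -0.27 across removals of an array. All of these keep 1 member tested, apart from the fits without a filter, which test 9. The probe sets called over the whole array, 3515 of 14791, fell to 2147 without an intensity trend. By the test the methods name, with a Benjamini-Hochberg adjustment added here, they fell to 18 on log2 signals and to 16 on linear signals. The study itself applied no such correction. Without a filter the number tested was larger, and 2564 of 31042 were called. With no filter and an offset of 50 (chosen after seeing the data) 2231 of 31042 were called. They numbered 1441 to 2490 across removals of an array, 1727 without control replicate 1 and 1441 without control replicate 2. Each removal leaves fewer arrays, and why the counts differed between removals was not tested. Of the 35 list genes, 12 were called at their brightest probe set. With the mean of all tested probe sets of a gene, fitted and adjusted over genes, 13 were called, 4 as rises and 9 as falls. By the test the methods name with the added adjustment, 0 were called on log2 or linear signals, with 10 and 9 at unadjusted p under 0.05. By limma 20 were at that level, against 35.6% of all tested genes. The share of all tested genes at that level by the test the methods name was not computed, so 10 and 9 have no background here. Across removals 6 to 11 were called, 7 without control replicate 1 and 6 without control replicate 2. Slc44a2, not called at -0.07, ranged from -0.14 to 0.00 across removals, the latter without stressed replicate 2. Chka passed with a stricter minimum of 200 (adjusted p = 0.0455), and Cnih2 and Vsnl1 after quantile normalization (adjusted p = 0.0164 and 0.019). The cause of these changes was not tested.

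The replicate numbers are no stated pairing, and the deviations of same-numbered arrays correlated with r of -0.11 across probe sets. With the replicate number as a block, 2672 of 14791 probe sets and 11 of the 35 list genes were called. In that fit the log2 fold change of the brighter Chrm3 probe set was -0.16 (limma adjusted p = 0.427). With the pairing crossed, added after seeing the data, 4039 of 14791 probe sets and 16 of the 35 list genes were called. Without a block these counts were 3515 and 12. Dim signal limits the other members: no array reached 100 in 8 of the 9 probe sets.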

Other observations

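Among the 14 dim probe sets of the further receptor subunits, 7 had groups that did not overlap, against 40.9% of all probe sets that were not measurable. Of these, 2 were singled out after their values were seen. Chrna9 had signals of 11.8 and 12.1 in controls and 1.0 and 1.1 in stressed rats, and without a filter its adjusted p from limma was 0.0581. Chrna3, a subunit of autonomic ganglia and of the medial habenula, had signals of 3.4 and 6.4 in controls and 23.6 and 14.6 in stressed rats, with an adjusted p of 0.151 from limma without a filter. These signals lie in the range under 25, where the median log2 gap between the arrays of a group was 0.79.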
